A study of Mus musculus and Rattus norvegicus with 2 samples.

Results

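5S ribosomal RNA (5S rRNA) fragments were followed in 2 small RNA libraries, 1 of rat and 1 of mouse. The cells were purified caput sperm, taken from the part of the epididymis that sperm enter on their way from the testis. The members were all listed sequences whose matched entry was the Rfam family of 5S rRNA, with sequences on the minus strand turned to the reverse complement. They came to 7534 of 650877 distinct sequences in rat and 4312 of 914516 in mouse, or 11846 of 1565393 in all. The rat library was made from Sprague Dawley young adults of 450 g and the mouse library from C57BL/6 animals of 2 months. Growth was labelled as normal in both, no treatment or genotype was given, and the number of animals behind each library is not given in the sources used here. Both libraries were cut from the 18 to 45 nt fraction of total RNA.

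5S rRNA is the small RNA of the large ribosomal subunit. RNA polymerase III transcribes it from its own tandem gene copies, apart from the long precursor that gives the 18S, 5.8S and 28S rRNAs, and the transcript ends in a short run of U. It folds into a 3-arm structure in which the 5′ end pairs with the 3′ end, and it reaches the ribosome bound to the ribosomal proteins uL18 (RPL5) and uL5 (RPL11). Mature sperm carry little intact rRNA, and fragments of it are a regular part of their small RNA.

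With 1 library per species there is no replicate check and no test between species. Intervals in parentheses are 95% exact binomial intervals, and they cover counting error only. Ratios are log2 of rat over mouse. The libraries held 14652889 listed reads in rat and 11760708 in mouse, where listed means matched by the authors to an entry. Marker miRNAs of cell types were read by name, in reads per 1000000 listed reads. The 3 germ line miRNAs, all with reads in both, summed to 900.3 in rat and 14.2 in mouse. Smooth muscle miRNAs (4 of 4 with reads in both) summed to 1855 in rat and 847 in mouse, and epithelial ones (5 of 5 in both) to 339 in rat and 207 in mouse. Leukocyte miRNAs had 3 of 3 with reads in rat and 2 of 3 in mouse, and summed to 17.2 in rat and 0.765 in mouse. In mouse the germ line sum was thus below those of smooth muscle and epithelium, and the part of other cells in the 5S values was not tested.

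The reference for positions was the 119-nt sequence shared by 25 of the 180 mouse 5S genes in GENCODE vM21. All 25 lie within chr8:123538786-123622046 of GRCm38. Bases are counted from 1 at its 5′ end. Rat reads were placed on the same sequence. Of rat 5S reads 96.8% (96.7 to 96.8) matched it without a mismatch, and of mouse 5S reads 93.8% (93.7 to 93.9).

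The next fragments are shown because they carry the difference between the libraries in the inner and 3′ bases of 5S. Capitals mark bases 71 to 95, which most mouse reads share.
Rat fragment, bases 35 to 61: tcgtctgatctcggaagctaagcaggg
Rat fragment, bases 73 to 96: TAGTACTTGGATGGGAGACCGCCt
Mouse fragment, bases 38 to 95: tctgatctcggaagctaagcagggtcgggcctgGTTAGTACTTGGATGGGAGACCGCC
Mouse fragment, bases 54 to 95: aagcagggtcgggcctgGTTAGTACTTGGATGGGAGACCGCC
Mouse fragment, bases 58 to 95: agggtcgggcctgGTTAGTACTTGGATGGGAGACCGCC
Mouse fragment, bases 71 to 95: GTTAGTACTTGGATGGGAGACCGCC
Fragment of the 3′ end, bases 98 to 119: ggaataccgggtgctgtaggct

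5S rRNA entries took 314385 reads in rat and 151579 in mouse. That was 2.15% of listed reads in rat (2.14 to 2.15) and 1.29% in mouse (1.28 to 1.30), a log2 ratio of 0.74 (0.73 to 0.74). The ratio depends on the total. With the snoRNA SNORD58 left out of the total it was 0.13. As a share of reads under rRNA entries 5S was lower in rat, at 12.96% in rat and 15.5% in mouse, its ratio being -0.26. By reads, 5S ranked 2 among 212 Rfam families in rat and 4 among 294 in mouse. Over the 144 Rfam families with at least 100 reads in both libraries together, 29.9% were 2-fold or more higher and 51.4% were 2-fold or more lower in rat, and the median log2 ratio was -1.28. As reported, 5S was on neither side of 2-fold, but its ratio was 2.69 with 0 mismatches to the entry and 1.30 over distinct sequences, both past 2-fold.

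Nearly all reads were sense fragments of 5S itself. Reads antisense to their entry made up 0.0417% of 5S reads in rat and 0.722% in mouse. They were compared only with the sense strand of the reference, on which a true antisense read cannot be placed. Whether they come from 5S was thus not tested. The leading antisense sequence was a different one in each library, of 19 nt in both. That of rat had 71 rat reads, and that of mouse had 285 mouse reads and 0 rat reads. Of 5S reads, 99.9% in rat and 99.2% in mouse could be placed on the reference with at most 2 mismatches.

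Reads fell into 4 parts that shared no read. Reads of the 5′ end start within the first 3 bases, reads of the 3′ end stop at base 117 or later, a further part stops at base 95, and the rest are internal. In rat, 38.1% of 5S reads were 5′ reads, 6.63% were 3′ reads, 3.56% stopped at base 95 and 51.6% were internal. In mouse, 20.2% were 5′ reads, 2.88% were 3′ reads, 67.5% stopped at base 95 and 8.56% were internal. Rat 5S was led by internal and 5′ fragments, and mouse 5S by fragments with a common last base.

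**Figure D1:**
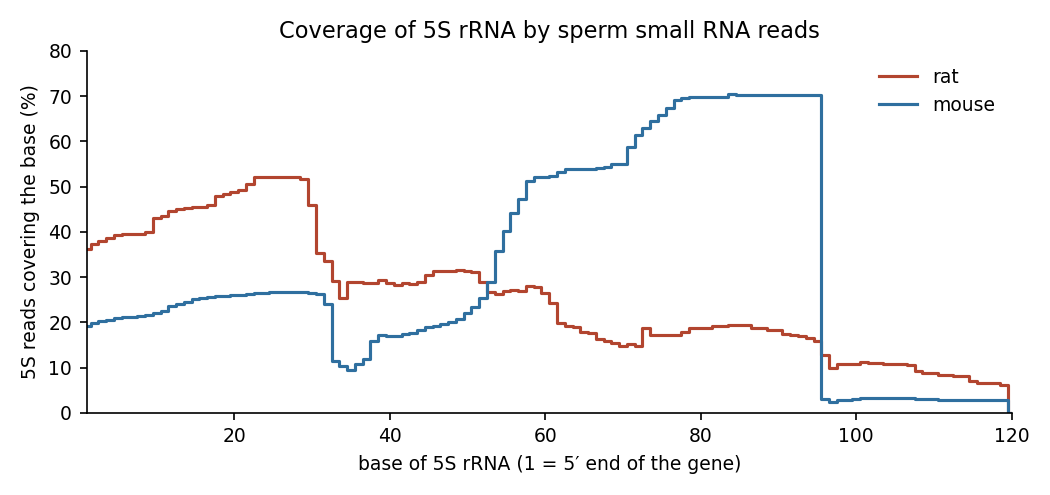
Share of 5S reads (%) that cover each base of 5S rRNA, in the rat and the mouse library. Rat coverage peaks at 52.2% at base 24 and is 28.95% at base 35, whereas mouse coverage is 9.37% at base 35, 70.2% at base 95 and 2.99% at base 96.

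Fragments with the mature 5′ end held a larger share of 5S reads in the rat library than in the mouse library. Reads starting exactly at base 1 were 36.2% of 5S reads in rat (36.1 to 36.4) and 19.2% in mouse (18.99 to 19.4), a log2 ratio of 0.92 (0.90 to 0.94). Ends near base 30 differed between the libraries. Over all 5S reads, ends at base 29 held 6.74% in rat and 0.377% in mouse, and ends at base 30 held 12.1% in rat and 0.626% in mouse. Ends at base 32 held 5.18% in rat and 13.1% in mouse.

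The matching of these reads to their entries differed between the libraries. Of 5′ reads, 0.172% in rat and 96.01% in mouse were listed with 2 mismatches to the entry, and 97.6% in rat and 0.261% in mouse with none. Over all 5S reads, 6.10% in rat and 49.7% in mouse matched the reference exactly while being listed with 1 or 2 mismatches to the entry. No 5S read was listed with more than 2 mismatches. With 0 mismatches required, 5′ reads were 40.9% of rat and 0.119% of mouse 5S reads, a ratio of 8.43. The part of this limit in the mouse shares was not tested.

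**Figure D2:**
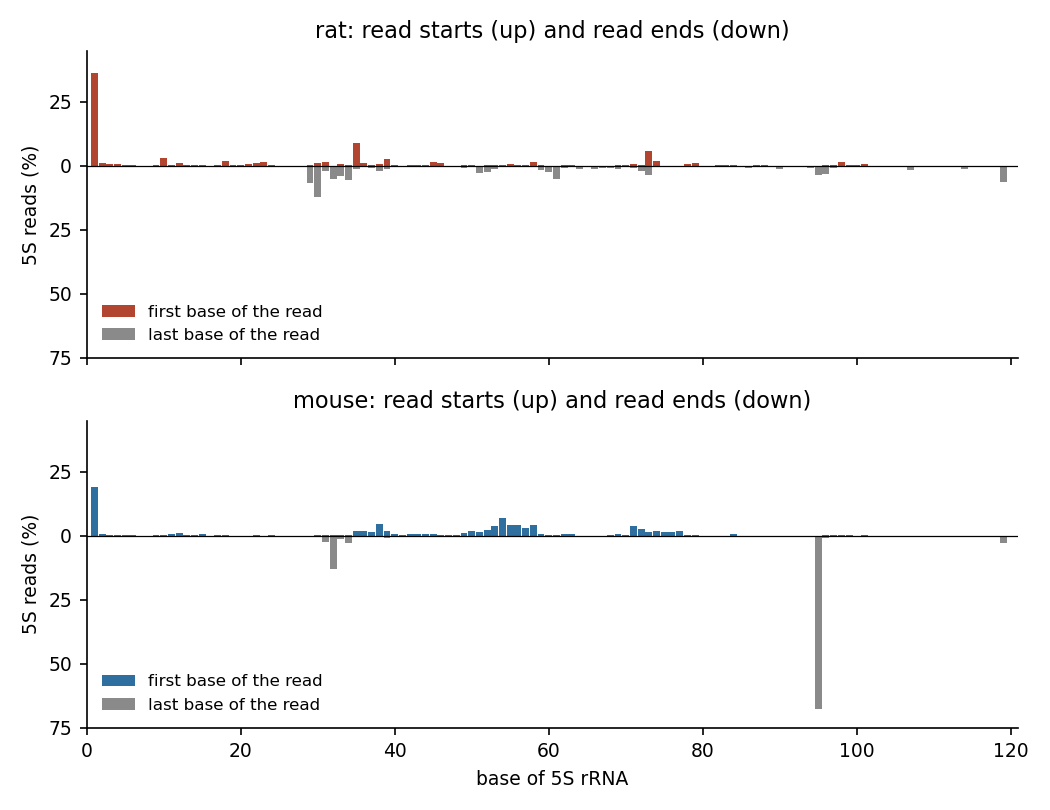
Share of 5S reads (%) by first base (upward bars) and by last base (downward bars) along 5S rRNA, rat above and mouse below. Rat ends are spread over many bases with the highest at base 30, whereas 67.5% of mouse reads share their last base at base 95.

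A single last base held most of the mouse 5S reads. Reads that stopped at base 95 were 3.56% of 5S reads in rat (3.50 to 3.63) and 67.5% in mouse (67.2 to 67.7), a log2 ratio of -4.24 (-4.27 to -4.21), or 18.9-fold higher in mouse. The neighbouring bases show how sharp the stop was. Base 94 held 0.784% in rat and 0.0277% in mouse, and base 96 held 3.33% in rat and 0.742% in mouse. Rat reads stopped at bases 95 and 96 about alike. Of reads that held base 95 at all, 22.5% in rat and 96.1% in mouse stopped there.

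The starts of these reads were spread, which gave a nested series with a common 3′ end. In rat, 174 sequences stopped at base 95, with reads of 18 to 65 nt and a median of 23 nt. In mouse, 1864 sequences did, with reads of 18 to 78 nt and a median of 42 nt. Starts at bases 71 to 74 held 58.01% of these reads in rat and 14.2% in mouse. Starts at bases 50 to 58 held 21.5% in rat and 46.1% in mouse, and those at bases 34 to 40 held 4.97% in rat and 17.02% in mouse.

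The leading members of the series were these. The 42-nt fragment of bases 54 to 95 had 250 reads in rat and 9735 in mouse, a log2 ratio of -5.60 (-5.79 to -5.42). The 41-nt fragment from base 55 had 688 reads in rat and 6015 in mouse. The 38-nt fragment from base 58 had 239 reads in rat and 5776 in mouse.

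Most longer and shorter forms went the same way. The 58-nt fragment of bases 38 to 95 had 50 reads in rat and 5773 in mouse, and its ratio of -7.17 (-7.60 to -6.77) was the lowest among 5S sequences with at least 100 reads over both libraries and reads in both. The 25-nt fragment of bases 71 to 95 had 426 reads in rat, 5445 in mouse and a ratio of -3.99 (-4.14 to -3.85). The 24-nt form from base 72 had 95 reads in rat, 3962 in mouse and a ratio of -5.70. Of the 55 sequences ending at base 95 with at least 100 reads, 0 were 2-fold or more higher and 52 were 2-fold or more lower in rat. The 23-nt form had the most rat reads of the series, 3789 against 2167 in mouse. It and the forms of 22 nt (2094 in rat, 2477 in mouse) and 18 nt (434 and 476) were less than 2-fold apart. Among all listed sequences with that minimum, 56.8% were 2-fold or more higher and 30.5% were 2-fold or more lower in rat. The 55 sequences held 11006 rat and 95824 mouse reads, so they passed the minimum mainly through mouse reads. Base 95 was itself named for its share of mouse reads, so these counts are no separate support for the stop.

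Listing by entry bears on the reads that run on past base 95. Reads crossing from base 95 to base 96 were 38564 in rat and 4179 in mouse under 5S entries, and of these 58.3% in rat and 23.6% in mouse were listed without a mismatch to their entry. Of reads that stopped at base 95, 65.5% in rat and 56.6% in mouse were listed so. Mouse reads listed without a mismatch reached base 105 with at least 10 reads, and those of rat base 119. With 5S sequence under every entry counted, the stop at base 95 held 2.79% of rat and 61.1% of mouse 5S reads, and 11.7% of rat and 88.4% of mouse reads that held base 95. Nearly all reads that stopped at base 95 were listed under 4 entries in each library, 99.5% of them in rat and 99.6% in mouse. All 4 also listed reads that ended past base 95, 37432 reads in rat and 4064 in mouse. These counts, and the furthest bases given next, set no condition on the start. Reads lying wholly beyond base 95 count too, so they are not a part of the crossing reads above. The entry with the most reads stopping at base 95 held 40.8% of them in rat and 42.7% in mouse. It listed reads up to base 119 in both libraries. Of the 4 entries, 1 in rat and 3 in mouse reached base 119.

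The stop joined many sequences. The leading last 12 bases of the family held 11.9% of 5S reads in rat and 66.5% in mouse, while the leading sequence held 9.35% in rat and 10.2% in mouse. The mouse gap of 56.3 percentage points was the largest among 51 mouse Rfam families with at least 1000 reads, whose median gap was 17.4. This measure was chosen after the stop had been seen. A leading ending of 50% or more was itself found in 21.9% of such families in rat and 66.7% in mouse, and by the leading ending alone mouse 5S ranked 24 of 51. Beside the other rRNAs, the leading 12-base ending held 11.4% in rat and 25.6% in mouse for 5.8S, and 7.28% in rat and 8.18% in mouse for 18S.

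Internal fragments were the largest of the 4 parts in rat. They took 162309 rat reads and 12969 mouse reads, a log2 ratio of 2.59 (2.57 to 2.62) as a share of 5S reads. By definition they leave out the reads that stopped at base 95, 11203 in rat and 102286 in mouse. The ratio holds for this split only. Rat reads started most often, after base 1, at base 35 with 9.13% of 5S reads, against 1.71% in mouse, and at base 73 with 5.82%, against 1.55% in mouse. The start at base 10 held 3.12% in rat and 0.354% in mouse. The start at base 54 held 0.372% in rat and 6.91% in mouse.

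Some breaks were seen from both sides in rat. Ends at base 34 held 5.60% of rat reads and starts at base 35 held 9.13%, so fragments lay on either side of that step. In mouse, those were 2.67% and 1.71%. At base 73, rat ends held 3.45% and rat starts at base 74 held 1.88%. At the step after base 95, ends held 3.56% in rat and 67.5% in mouse, and starts at base 96 held 0.438% in rat and 0.234% in mouse.

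The leading internal rat fragment, bases 35 to 61, had 9779 reads in rat and 23 in mouse, a log2 ratio of 8.41 (7.83 to 9.07). Its form shorter by 1 base had 4282 reads in rat and 0 in mouse, which allows up to 3. The 24-nt fragment of bases 73 to 96 had 4746 reads in rat, 46 in mouse and a ratio of 6.37 (5.95 to 6.82). Ends at base 61 made up 4.94% of rat and 0.0561% of mouse 5S reads. The 5 sequences with the highest ratios, among those read in both species, were all internal, and each had 1 to 4 mouse reads. The fragment of bases 73 to 97 had 1691 reads in rat, 1 in mouse and a ratio of 10.41 (7.93 to 15.71).

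Read lengths differed as well. The median 5S read was 30 nt in rat and 38 nt in mouse, and the modal length was 30 nt in rat and 32 nt in mouse. The range of 29 to 34 nt held 43.6% of rat and 19.9% of mouse 5S reads. The range of 38 to 43 nt held 7.23% in rat and 28.3% in mouse, and that of 57 to 61 nt held 1.05% in rat and 10.9% in mouse. Within the labelled fraction of 18 to 45 nt lay 93.8% of rat and 78.5% of mouse 5S reads.

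**Figure D3:**
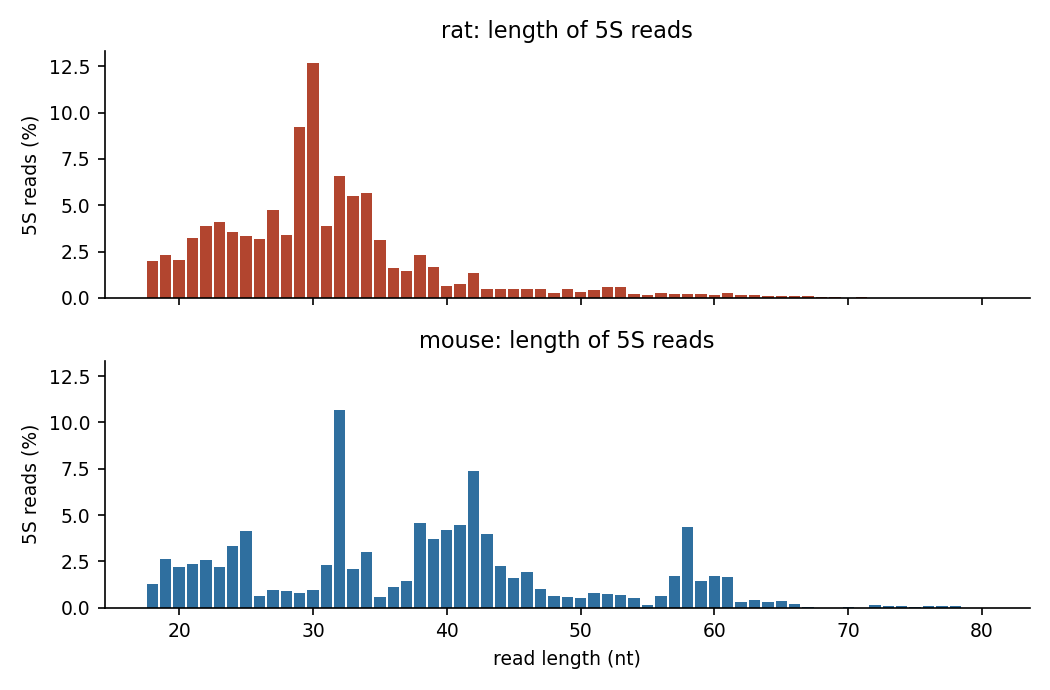
Share of 5S reads (%) by read length in nt, up to 80 nt, rat above and mouse below. Rat is highest at 30 nt with 12.7% and at 29 nt with 9.22%, and mouse peaks include those at 25, 32, 38, 42 and 58 nt.

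The 3′ end was listed only in part under 5S entries. Under them, 3′ reads were 6.63% of rat and 2.88% of mouse 5S reads, a log2 ratio of 1.20 (1.16 to 1.25), and no read in either library ran past base 119. Ends at base 119 itself held 6.15% in rat and 2.73% in mouse. The fragment of bases 98 to 119 led the 3′ reads of rat with 4324 reads, against 468 in mouse, a ratio of 2.89 (2.75 to 3.03). Reads that carry the U run of the transcript were listed elsewhere. Under other entries, 91038 rat reads and 16304 mouse reads held an 18-nt word of 5S, and 97.9% of these in rat and 90.8% in mouse ran past base 119.

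In rat, 97.2% of those reads were listed as mRNA. In mouse, they were spread over piRNA records with 33.3%, rRNA with 29.05%, records of unknown type with 18.9% and mRNA with 18.7%. No rat read with 5S sequence was listed under a piRNA record. In mouse, 5S sequence made up 7.01% of all reads under piRNA records (6.83 to 7.19). Under the record piR-1330 it was 4936 of 6298 mouse reads, or 78.4% (77.3 to 79.4).

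With every entry counted, 3′ reads were 27.3% of rat and 11.5% of mouse 5S reads, a log2 ratio of 1.25 (1.23 to 1.27). The 5S share of listed reads was then 2.77% in rat and 1.43% in mouse, its ratio being 0.95. Reads that reached base 119 could be sorted by the T that followed it, the U run in RNA. A single T followed in 47.5% of rat and 68.02% of mouse reads, 2 T in 30.2% of rat and 7.41% of mouse reads, and none in 18.4% of rat and 22.3% of mouse reads. The form with 2 T had a log2 ratio of 2.03 (1.95 to 2.11).

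**Figure D4:**
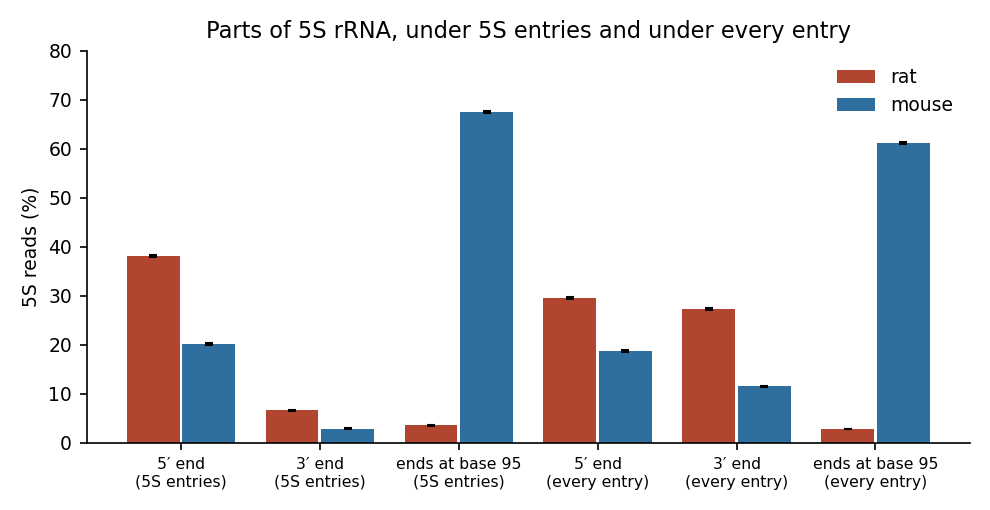
Share of 5S reads (%) at the 5′ end, at the 3′ end and stopping at base 95, for reads under 5S entries and for 5S sequence under every entry. Bars are the rat (left) and mouse (right) library and error bars are 95% exact binomial intervals. The 3′ end holds 6.63% in rat and 2.88% in mouse under 5S entries, and 27.3% in rat and 11.5% in mouse under every entry, while the stop at base 95 is higher in mouse both ways.

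Most abundant 5S sequences occurred in both species. Of the 10186 distinct 5S sequences, 1660 were listed in both libraries, or 22.03% of those of rat and 38.5% of those of mouse, and they held 86.9% of rat and 93.5% of mouse 5S reads. Among the 424 sequences with at least 100 reads over both libraries, 85.8% were listed in both, against 58.2% of all listed sequences with that minimum. Of the 424, 321 (75.7%) were 2-fold or more higher and 62 (14.6%) were 2-fold or more lower in rat, beside 56.8% and 30.5% of all such sequences. The median log2 ratio was 3.86, beside 1.97. The 62 lower in rat were made up of 52 that stopped at base 95, 8 internal ones and 2 that could not be placed.

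The parts differed in direction. Among 54 sequences of the 5′ end, 45 were 2-fold or more higher and 0 lower in rat, and among 31 of the 3′ end, 27 and 0. Among 282 internal sequences, 249 were higher and 8 were lower. Of all listed sequences with that minimum of 100 reads, 56.8% were higher and 30.5% were lower. The 54 held 114919 rat and 29859 mouse reads, and the 31 held 18355 rat and 3704 mouse reads. The 282 held 123386 rat and 7652 mouse reads, so each set passed the minimum mainly through rat reads. By definition the internal ones leave out the last base that most mouse reads share. Many are also nested forms of the same RNA, so these counts are no separate support for a difference. For comparison, 26.9% of 67 sequences of 5.8S and 96.4% of 692 sequences of 18S were listed in both libraries.

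**Figure D5:**
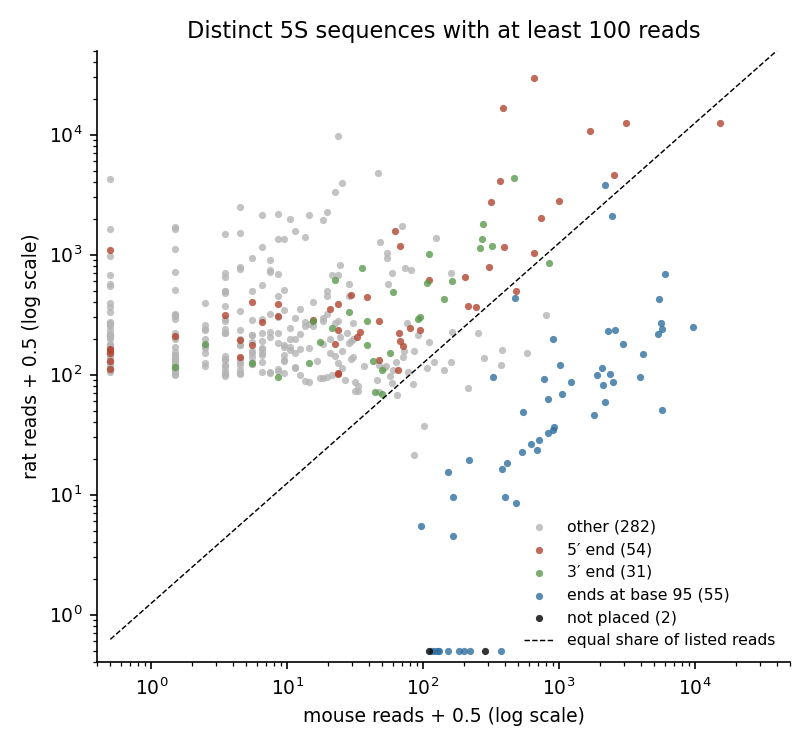
Reads of each distinct 5S sequence with at least 100 reads over both libraries, mouse reads on the horizontal and rat reads on the vertical axis, each plus 0.5 and on log scales. Colours mark the part of 5S, with the number of sequences in brackets. Of 55 sequences stopping at base 95, 52 are 2-fold or more lower in rat. Of 282 internal ones, 249 are 2-fold or more higher in rat. Those stopping at base 95 passed the minimum mainly through mouse reads, and internal ones, like those of the 5′ and 3′ ends, mainly through rat reads.

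Bases that differ between mouse gene copies were looked for in the reads. Substitutions are given as the reference base, the position from the first base of 5S, and the read base, and the outer 2 bases of each read were not used. T62A occurred in 0.154% of rat (0.123 to 0.190) and 2.08% of mouse reads (1.98 to 2.18) that covered the base. C44T occurred in 0.0138% of rat (0.00713 to 0.0241) and 0.870% of mouse reads (0.759 to 0.992). The median over all 345 substitutions with at least 1000 covering reads was 0.00975% in rat and 0.0113% in mouse. T62A and C44T were the 2 highest in mouse. Listing stopped at 2 mismatches to the entry, and 96.01% of mouse 5′ reads already had 2. The part of this limit in the substitution values was not tested.

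Each of these is the only difference from the reference in 3 annotated mouse genes on chromosome 8, against 25 genes with the reference sequence. For T62A those are n-R5s106, n-R5s118 and n-R5s130, and for C44T they are n-R5s112, n-R5s120 and n-R5s125, all on the minus strand. Of mouse reads with T62A, 95.4% (94.2 to 96.3) stopped at base 95, against 96.3% (96.1 to 96.4) of those with the reference base. Of mouse reads with C44T, 68.3% (61.8 to 74.4) did, against 83.9% (83.4 to 84.3) of those with the reference base.

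In rat, T62A was no higher than the other changes at the same base, T62C at 0.239% and T62G at 0.157%. T62C in mouse was 0.179%. In 1 further gene copy the only difference is T33C, which was found in 0.0359% of rat and 0.270% of mouse reads.

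The fold predicted for the reference places the ends within the 3-arm structure. Bases 1 to 9 were predicted to pair with bases 110 to 118, so that 5′ and 3′ fragments hold both strands of one helix. In the same prediction base 95 paired with base 81, and base 96 was unpaired. Of reads with an internal last base, 29.8% in rat and 8.76% in mouse ended on an unpaired base, beside 34.5% of bases unpaired in the prediction. Without ends at base 95 the shares were 30.9% in rat and 29.2% in mouse. Of all placed reads that started after base 1, 44.2% in rat and 56.7% in mouse started on an unpaired base.

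Breaks by dinucleotide also differed. Between the last base of a read and the next base of 5S, CT was the leading step with 15.3% of rat and 74.1% of mouse internal ends. Without ends at base 95, CG led in rat with 15.02% and AT led in mouse with 47.8%, mostly from the stop at base 32. The CT step is 9.32% of the steps in the reference, AT 4.24% and CG 7.63%.

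Other RNAs made by RNA polymerase III were set beside 5S, a list chosen by polymerase. Of its 8 members, 7 had reads, of which 3 were 2-fold or more higher and 1 was 2-fold or more lower in rat, beside 29.9% and 51.4% of the 144 families. Their median ratio was 0.71 on the log2 scale, beside -1.28 over the 144 families and 0.74 for 5S. tRNA, the amino acid carrier, stood at 55.3% of listed reads in rat and 23.8% in mouse, with a ratio of 1.22. Vault RNA, a part of the vault particle, had a ratio of 3.28, and Y RNA, which binds the Ro protein, 2.15.

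The RNA of the signal recognition particle, which targets proteins to the endoplasmic reticulum, had 0.62, and RNase P RNA, which trims tRNA precursors, 0.71. 7SK, which holds back the elongation factor P-TEFb, had -0.73, and the spliceosomal U6 had -1.74. RNase MRP RNA was listed with 0 reads in both, which allows a share of up to 2.05e-05% in rat and 2.55e-05% in mouse. Among rRNAs from the long precursor, 5.8S was 0.450% of rat and 0.0447% of mouse listed reads, a ratio of 3.33 (3.29 to 3.37), and 18S was 0.835% of rat and 1.63% of mouse listed reads, a ratio of -0.97 (-0.98 to -0.96).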

How the data were processed

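The authors deposited 1 table per library with whole, unnormalised read counts per distinct sequence, its single matched entry, the strand and up to 2 mismatches, per the file headers. RNA was isolated with Trizol and the 18 to 45 nt fraction was sequenced, per the labels' protocols. Bowtie 0.12.7, mm9 and rn5 are named in the submitters' processing notes. The sources used here do not give trimming, filters or total depth. The closing sum line of the mouse table was left out.

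Reads on the minus strand were turned to the reverse complement. Reads were then placed without gaps on the 119-nt GENCODE vM21 reference (GRCm38, used for sequence and gene positions only) with at most 2 mismatches and up to 3 bases past its end. No rat genome was used here. 5S sequence under other entries was found by exact 18-nt words. Shares have Clopper-Pearson 95% intervals and ratios exact conditional binomial ones (SciPy 1.17.1). No molecular identifiers are described in the sources used here, so reads may not be independent molecules, and intervals cover counting error only. A count of 0 is compatible with up to 3 counts. Per-sequence ratios used to call 2-fold added 0.5 read to each count and needed 100 reads over both libraries. The fold was predicted with ViennaRNA 2.7.2. Placement was tested on simulated reads, and 100.0% of 2000 with 2 substitutions were placed correctly.

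The comparison was rat against mouse, with no test. Named sequences were the 10 most abundant of each library and the 5 highest and 5 lowest ratios, of which a part is printed and some are not reported here. Start and end positions with 5% of 5S reads in either library were named. Entries with 1% of 5S reads, 21 in rat and 9 in mouse, are named by contig accession alone and not printed. The other 5S positions and 12-base endings were chosen after their values were seen. The members and lists were chosen with earlier results of these data known. Alternatives were the mismatch, read count, length, strand and membership rules, the total, the end windows, the minimum and the fold.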

Additional observations from a re-analysis of the deposited data

Results flagged for a closer look

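Reads with 5S sequence outside the 5S entries came to 91038 in the rat library and 16304 in the mouse library. They were singled out because they lie in rows that the comparison of 5S entries does not use, above the 3 counts that a count of 0 allows. In rat they were 22.5% and in mouse 9.71% of all reads with 5S sequence.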

How the results depend on the processing

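No paired analysis was possible because each species has 1 library. All ratios are log2 of rat over mouse. The 5S share of listed reads, 0.74 as reported, was 2.69 with 0 mismatches to the entry, 0.91 at 18 to 45 nt, 0.95 with every entry, 1.30 over distinct sequences, 0.63 with at least 10 reads per sequence, 0.75 without the leading 5S sequence, 0.75 (0.745) on the sense strand, 0.53 without the leading sequence of each library in the total, 0.13 without SNORD58 and -0.26, the reverse direction, as a share of rRNA entries. The 5′ ratio of 0.91 was 8.43 with 0 mismatches, 0.62 at 18 to 45 nt, 0.66 with every entry, 0.97 over distinct sequences, 1.502 without the leading sequence and 0.89 with at least 10 reads. The 3′ ratio of 1.20 was 0.99 at 18 to 45 nt, 0.66 over distinct sequences and 1.27 with a 5-base window, and with 0 mismatches it had no value because mouse had 0 of 67402 reads there.

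The ratio of ends at base 95, -4.24, whose alternatives were chosen after seeing the data, was -5.06 with 0 mismatches, -4.16 at 18 to 45 nt, -4.45 with every entry and -3.15 for ends at bases 94 to 96. The rat median of 30 nt became 33 nt over distinct sequences, and the mouse median of 38 nt became 34 nt with 0 mismatches, 33 nt at 18 to 45 nt and 40 nt without the leading sequence. The rat mode of 30 nt became 29 nt, over distinct sequences or without the leading sequence, and the mouse mode of 32 nt became 42 nt under the same settings and with 0 mismatches. With a minimum of 10 reads, 1397 sequences were 2-fold or more higher and 235 lower in rat, and 61.6% were in both libraries. With 1000 reads, these were 46, 24 and 96.1%. The cause of these changes was not tested. Depth limits sequences with few reads in 1 library, and the mouse values rest on entries that many reads match with mismatches.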
